A study of Mus musculus with 6 samples.

Results

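Scd1, which encodes the stearoyl-CoA desaturase that makes monounsaturated fatty acids, was described together with the enzymes that build, lengthen and desaturate fatty acids in tubular epithelial cells of injured mouse kidneys. The genes were chosen by symbol, as 10 named genes of fatty acid synthesis, desaturation and elongation: Scd1, Scd2, Fasn, Acaca, Acly, Srebf1, Elovl5, Elovl6, Fads1 and Fads2. Of these, 8 were paired with a transcript cluster, which is the set of probes summarised as 1 value and stands for about 1 gene, each with 1 cluster, among 19505 genes named on the array. Scd2 and Srebf1 were not analysed here. Scd1, Fads1 and Fads2 lie on chromosome 19, Fasn, Acaca and Acly on chromosome 11, Elovl5 on chromosome 9 and Elovl6 on chromosome 3. The group was put together with the treatment difference of Scd1 already known, so that difference is given as a description without a test.

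There were 3 arrays of cells from mice given PT2385 and 3 arrays of cells from mice given vehicle. PT2385 is an inhibitor of the hypoxia-inducible factor HIF-2α and was given by injection (10 mg/kg) on 4 occasions, the earliest 16 h ahead of the operation and the others at 1, 8 and 20 h following it. The sources write the injected compound once as PT2384. All 6 samples came from kidneys in which blood flow was stopped for 30 min and then restored for 24 h, an ischemia-reperfusion injury, and the tubular cells were released by collagenase. The labels give no strain, sex or age and do not say whether each array was a separate animal, so the tests reflect the spread among these arrays, which may be technical. Values are log2 signals, and differences are PT2385 minus vehicle on that scale.

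The groups also differed in transcripts of the Y chromosome. Eif2s3y, a translation factor gene, had 3.27, 3.04 and 3.34 in the PT2385 arrays and 9.09, 9.24 and 9.28 in the vehicle arrays. The limma adjusted p was 1.04e-07. Uty averaged 2.99 ± 0.23 in PT2385 cells, against 8.66 ± 0.09 in vehicle cells, and Kdm5d averaged 3.32 ± 0.07 in PT2385 cells, against 6.47 ± 0.12 in vehicle cells (SD, 3 arrays each). The background control rows lay between 2.41 and 7.47, with a median of 3.60. For every difference below, treatment and the sex of the animals cannot be told apart.

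Fatty acid synthesis starts in the cytosol, where ATP-citrate lyase (Acly) makes acetyl-CoA, acetyl-CoA carboxylase (Acaca) turns it into malonyl-CoA, and fatty acid synthase (Fasn) assembles palmitate. Elovl6 lengthens palmitate to stearate, and Scd1 puts a double bond into stearate to give oleate and into palmitate to give palmitoleate. Fads2, Elovl5 and Fads1 act on dietary essential fatty acids to make polyunsaturated ones. Transcription of many of these genes is driven by SREBP-1, the product of Srebf1, which works with the CCAAT-binding factor NF-Y. Proximal tubule cells burn fatty acids as their main fuel, and kidney tubules store lipid after injury.

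Among the PT2385 arrays the synthase and lyase transcripts rose in the same order, as that of Acaca also did. The elongase gene Elovl6 had the next largest difference after Scd1. Promoter sequences are shown for Fasn, Acly and Elovl6. They run from 250 bases before to 50 bases after the start of the gene, from RefSeq on GRCm38.p6, with capitals marking a CCAAT box on either strand (ATTGG where it lies on the opposite strand). Promoters were found for 7 of the 10 named genes, counting 3 starts for Srebf1. None was found for Scd1, Scd2 or Fads1, so the motifs below do not describe the promoter of Scd1. Fasn lies at chr11:120824498-120824797 on the minus strand, Acly at chr11:100527951-100528250 on the minus strand and Elovl6 at chr3:129532136-129532435 on the plus strand.
Fasn: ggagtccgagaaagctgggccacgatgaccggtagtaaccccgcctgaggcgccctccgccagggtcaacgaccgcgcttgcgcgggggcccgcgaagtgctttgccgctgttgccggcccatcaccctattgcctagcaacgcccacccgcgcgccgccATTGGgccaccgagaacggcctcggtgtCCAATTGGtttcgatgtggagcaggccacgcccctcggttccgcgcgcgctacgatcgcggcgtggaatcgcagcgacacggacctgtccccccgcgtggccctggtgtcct
Acly: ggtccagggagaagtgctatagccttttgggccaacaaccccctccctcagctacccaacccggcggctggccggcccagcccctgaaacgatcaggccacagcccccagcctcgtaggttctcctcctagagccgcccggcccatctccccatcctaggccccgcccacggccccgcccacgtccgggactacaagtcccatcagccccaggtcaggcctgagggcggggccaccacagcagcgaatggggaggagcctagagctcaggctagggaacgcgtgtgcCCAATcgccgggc
Elovl6: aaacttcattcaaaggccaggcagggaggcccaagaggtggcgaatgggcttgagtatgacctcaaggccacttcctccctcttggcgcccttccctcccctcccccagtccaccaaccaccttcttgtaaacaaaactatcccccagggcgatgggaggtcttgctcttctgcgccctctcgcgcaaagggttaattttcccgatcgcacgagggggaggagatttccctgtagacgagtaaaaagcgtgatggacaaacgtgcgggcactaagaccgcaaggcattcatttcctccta

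The Fasn window held 3 CCAAT boxes, 2 of them overlapping as an inverted pair, the Acly window held 1 and the Elovl6 window 0. A CCAAT box occurred in 37.4% of the 32851 promoter windows of the RefSeq set, so its presence is common. Neither the E-box CACGTG (7.15% of windows) nor the sterol response core CACCCCAC (2.87% of windows) occurred in these 3 windows, searched on both strands. The E-box occurred once in the Elovl5 window, which also held 2 CCAAT boxes. The windows of Acaca and Fads2, not shown, held 0 matches to any of these motifs. The Srebf1 windows held 1, 0 and 1 CCAAT boxes. A match is a description of the letters, and a missing match says only that those letters are not in the window.

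Scd1 was the gene of the group with by far the widest gap between the treatments. Its log2 signal was 10.53, 9.98 and 9.74 in the PT2385 arrays and 7.30, 7.43 and 7.49 in the vehicle arrays. Every PT2385 array lay above every vehicle array, with a gap between the groups wider than the spread inside either. The difference was 2.68 (SE 0.18), or 6.39-fold, with 10.08 ± 0.40 in PT2385 cells, against 7.41 ± 0.10 in vehicle cells (SD, 3 arrays each). The vehicle values lay above the array medians (6.20 to 6.25) and close to the brightest value of a background control (7.47). With any 1 array left out, the difference stayed between 2.46 and 2.85.

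Scd1 lies on chromosome 19 in a row of related genes, in the order Scd3, Scd2, Scd4 and Scd1 in RefSeq. The neighbours, chosen for description after their values were seen, were dim. Scd3 had 5.18, 4.70 and 4.87 in the PT2385 arrays and 4.32, 4.69 and 4.25 in the vehicle arrays, a difference of 0.50 (SE 0.16, limma adjusted p = 0.227). Scd4 averaged 4.85 ± 0.14 in PT2385 cells, against 4.87 ± 0.10 in vehicle cells (SD, 3 arrays each), and its groups overlapped. The gap seen for Scd1 was not seen at the same size in the clusters of these 2 related genes. Both lay in the range of the background controls (2.41 to 7.47), where a difference may not be measurable, and Scd2 was not analysed here. Probes of related desaturases can share sequence, and cross-hybridisation was not tested.

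**Figure D1:**
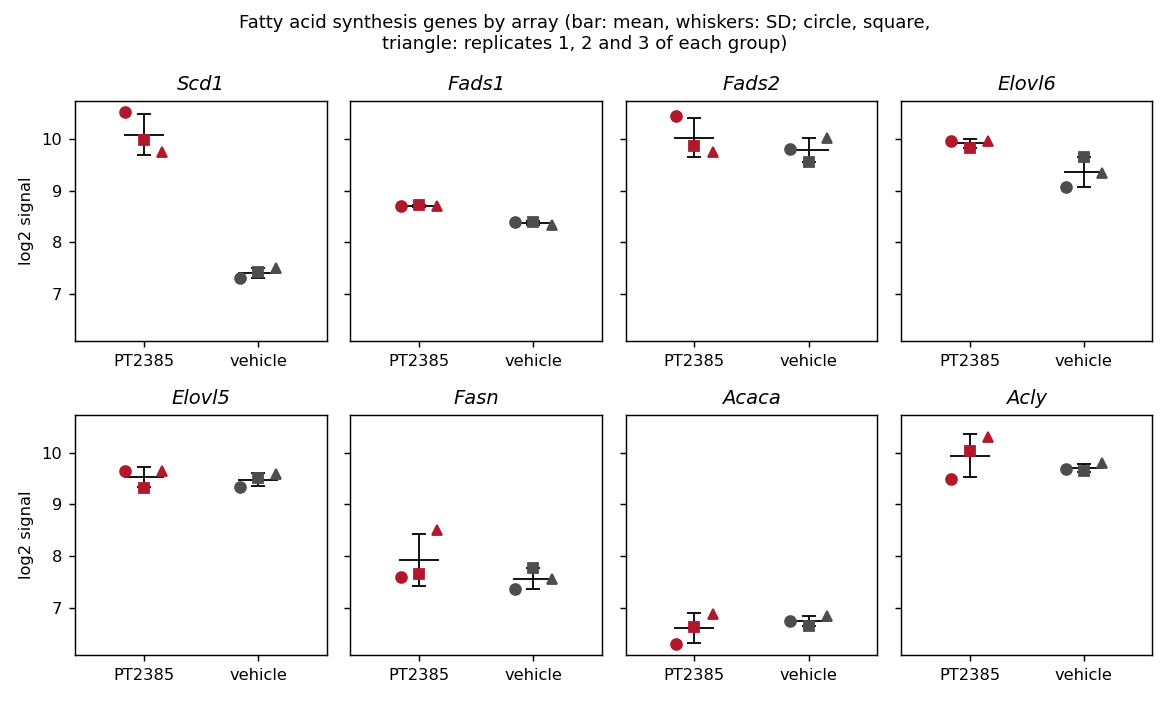
Log2 signal (y axis) of the 8 fatty acid synthesis genes in each PT2385 and vehicle array, with a point per array, a bar at the group mean and whiskers of 1 SD over 3 arrays. Scd1 has 9.74 to 10.53 in the PT2385 arrays and 7.30 to 7.49 in the vehicle arrays, and the other 7 genes differ far less.

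Of the 7 genes of the group other than Scd1, 6 had a positive difference and 1 a negative one, and 0 passed the threshold (adjusted p under 0.05, limma, over 22206 clusters). At an unadjusted p under 0.05 there were 2, Fads1 and Elovl6, against 14.5% of all clusters. Over all clusters 0.829% passed the adjusted threshold, 0.333% as higher and 0.495% as lower in the PT2385 group. These 7 genes had a median difference of 0.23 without Scd1, and 0.28 with it, where the median over all clusters was 0.02 and 53.5% of clusters had a positive difference. Across the other 7 genes the differences ran from -0.14 to 0.56.

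Among the desaturases of polyunsaturated fatty acids, Fads1, the delta-5 desaturase gene, was very even within each group. It had 8.70, 8.72 and 8.69 in the PT2385 arrays and 8.40, 8.38 and 8.33 in the vehicle arrays. The groups did not overlap, and the difference was 0.34 (SE 0.09, adjusted p = 0.147, limma). Fads2, the delta-6 desaturase gene that neighbours it on chromosome 19, had 10.45, 9.86 and 9.76 in the PT2385 arrays and 9.81, 9.55 and 10.01 in the vehicle arrays. These groups overlapped, with a difference of 0.23 (SE 0.19, 95% interval -0.21 to 0.68, adjusted p = 0.615), and without PT2385 replicate 1 it was 0.02. The 95% interval of Fads1 was 0.14 to 0.53.

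Of the elongases, Elovl6 had 9.96, 9.81 and 9.96 in the PT2385 arrays and 9.07, 9.65 and 9.34 in the vehicle arrays. The PT2385 arrays all lay above the vehicle arrays, and the difference was 0.56 (SE 0.15, adjusted p = 0.156, limma), or 1.47-fold. Elovl5 had 9.64, 9.31 and 9.65 in the PT2385 arrays and 9.35, 9.51 and 9.58 in the vehicle arrays, with overlapping groups. Its difference of 0.05 had a 95% interval of -0.23 to 0.33 (adjusted p = 0.884). In the 7 genes other than Scd1 the groups did not overlap in 2, Fads1 and Elovl6, both higher in the PT2385 arrays. Over all clusters 11.6% were apart in that direction and 9.13% in the other.

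The genes of cytosolic synthesis varied more within the PT2385 group than between the treatments. Fasn had 7.60, 7.66 and 8.51 in the PT2385 arrays and 7.37, 7.76 and 7.55 in the vehicle arrays. Acly had 9.48, 10.04 and 10.29 in the PT2385 arrays and 9.69, 9.64 and 9.79 in the vehicle arrays. Acaca had 6.30, 6.62 and 6.88 in the PT2385 arrays and 6.74, 6.64 and 6.85 in the vehicle arrays. In each of these 3 genes PT2385 replicate 3 was the highest of the PT2385 arrays and replicate 1 the lowest, whereas Scd1 was highest in replicate 1 and lowest in replicate 3.

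The differences of these genes were small beside that spread. Fasn differed by 0.36 (SE 0.23, adjusted p = 0.512), Acly by 0.23 (SE 0.19, adjusted p = 0.603) and Acaca by -0.14 (SE 0.15, adjusted p = 0.693), all from limma. Their 95% intervals were -0.17 to 0.89 for Fasn, -0.20 to 0.66 for Acly and -0.48 to 0.20 for Acaca. Without PT2385 replicate 3 the difference of Fasn was 0.07 and that of Acly 0.05. Without PT2385 replicate 1 that of Acly was 0.46 and that of Acaca 0.0078, with the opposite sign to the comparison of all 6 arrays.

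Some fat cell transcripts were highest in 1 of these arrays. Adipoq, the adiponectin gene, had 3.59, 3.67 and 5.29 in the PT2385 arrays and 3.61, 3.34 and 3.52 in the vehicle arrays. Ucp1, the uncoupling protein gene of brown fat, had 3.82, 3.47 and 5.10 in the PT2385 arrays and 3.48, 3.48 and 3.30 in the vehicle arrays. Retn, the resistin gene, had 4.76, 4.91 and 5.78 in the PT2385 arrays and 4.71, 4.58 and 4.43 in the vehicle arrays. PT2385 replicate 3, the array highest in Fasn, Acly and Acaca, was the highest of the 6 arrays in 4 of the 8 measured fat cell markers, Adipoq, Ucp1, Retn and Fabp4. It was the lowest of the PT2385 arrays in 2, Plin1 and Lep, and the other 2, Lipe and Cidec, were highest in a vehicle array. Plin1, the perilipin gene of fat cell droplets, had 4.75, 4.80 and 4.69 in the PT2385 arrays and 4.71, 4.50 and 4.50 in the vehicle arrays. Of the 8 measured fat cell markers 7 had a positive difference, against 53.5% of all clusters. Among these markers 0 passed the threshold (limma), with 1 at an unadjusted p under 0.05, against 14.5% of all clusters. Their mean was 5.30 to 5.89 in the PT2385 arrays and 5.13 to 5.33 in the vehicle arrays. All of them except Fabp4 lay in the range of the background controls (2.41 to 7.47) in every array, where a difference may not be measurable. Without PT2385 replicate 3 the difference of Scd1 was 2.85. The part of fat cell transcripts in the values of Fasn, Acly, Acaca and Scd1 was not tested.

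**Figure D2:**
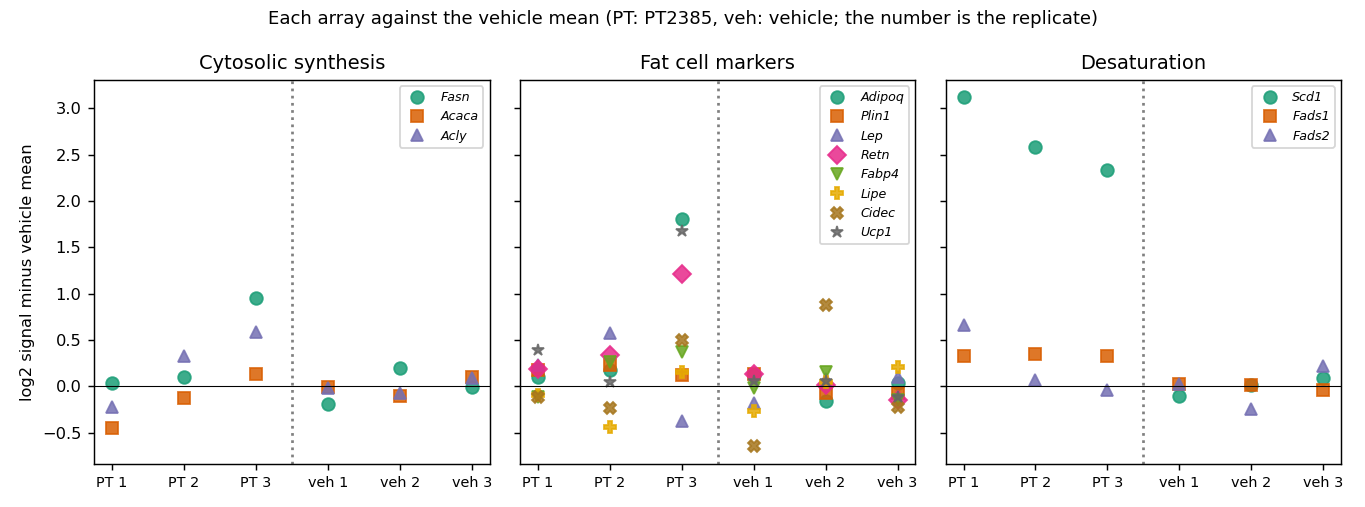
Log2 signal of each array minus the mean of the vehicle arrays (y axis), for 3 genes of cytosolic synthesis, the 8 measured fat cell markers and 3 desaturases, with 1 point per gene and array. Fasn and 4 of the 8 fat cell markers are highest in PT2385 replicate 3, Plin1 and Lep are the lowest of the PT2385 arrays there, and Scd1 is lowest there among the PT2385 arrays and high in all 3 of them.

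Tubular cells of different nephron segments were present in the isolates, and their markers did not all move alike. Loop of Henle and distal tubule markers averaged 10.21, 9.73 and 9.41 in the PT2385 arrays and 8.79, 8.78 and 8.86 in the vehicle arrays, with a positive difference in 10 of 10 and 1 past the threshold (Cldn19, a tight junction gene). Over all clusters 53.5% had a positive difference and 0.829% passed the threshold. Collecting duct markers averaged 8.51 to 8.80 in the PT2385 arrays and 7.99 to 8.21 in the vehicle arrays, with a positive difference in 12 of 12 and 0 past the threshold. Every PT2385 array lay above every vehicle array in 9 of the 10 loop and distal markers and 9 of the 12 collecting duct markers. Over all clusters 11.6% were apart in that direction. Proximal tubule markers averaged 10.45 to 11.53 in the PT2385 arrays and 10.81 to 11.14 in the vehicle arrays, and overlapped. Of the 12, 6 had a positive and 6 a negative difference, and 1 passed the threshold. That gene, Slc22a6, which encodes an organic anion transporter, fell by 0.97 (SE 0.10, adjusted p = 0.00572, limma). All 3 of these averages were highest in PT2385 replicate 1 and, among the PT2385 arrays, lowest in replicate 3, as Scd1 was. Their part in the level of Scd1 was not tested. In such bulk samples fewer cells of a type and less RNA per cell cannot be told apart.

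Markers of cells other than tubules were measured as well. Neutrophil markers averaged 4.83 to 5.36 in the PT2385 arrays and 5.53 to 5.70 in the vehicle arrays, without overlap. Of the 8, 2 had a positive and 6 a negative difference, where 53.5% of all clusters had a positive one. The threshold was passed by 1 of them, against 0.829% of all clusters. That gene, Csf3r, the receptor of a granulocyte growth factor, fell by 1.04 (SE 0.16, adjusted p = 0.0326, limma). All 8 neutrophil markers, Csf3r among them, lay in the range of the background controls (2.41 to 7.47) in both groups. Macrophage markers averaged 6.67 to 6.91 in the PT2385 arrays and 6.89 to 7.21 in the vehicle arrays. Of the 9 measured, 5 had a positive and 4 a negative difference, with a median of 0.11. The threshold was passed by 1 of these 9, against 0.829% of all clusters. That gene, Lyz2, a lysozyme gene, fell by 1.19 (SE 0.16, adjusted p = 0.0202, limma), and Ccr2, a chemokine receptor gene, was lower in every PT2385 array than in any vehicle array (-1.15, adjusted p = 0.127). Endothelial markers averaged 8.13 to 8.37 in the PT2385 arrays and 7.96 to 8.40 in the vehicle arrays. Fibroblast markers averaged 7.55 to 7.71 in the PT2385 arrays and 7.25 to 7.67 in the vehicle arrays, and podocyte markers 7.62 to 7.78 in the PT2385 arrays and 7.51 to 7.67 in the vehicle arrays. The averages of the macrophage, endothelial, fibroblast and podocyte lists overlapped between the groups. The single marker genes named here were picked after their values were seen.

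Among the regulators of the pathway no transcript passed the threshold. Of 14 measured regulators 7 had a positive and 7 a negative difference, with a median of 0.01. At an unadjusted p under 0.05 (limma) there was 1, against 14.5% of all clusters. Mlx, the partner of the carbohydrate-responsive factor ChREBP, had 8.88, 8.85 and 8.71 in the PT2385 arrays and 9.17, 9.22 and 9.04 in the vehicle arrays, a difference of -0.33 (SE 0.10, adjusted p = 0.202, limma). Mbtps1, a protease that cleaves SREBP precursors, differed by 0.17 (SE 0.09, adjusted p = 0.445). Srebf2, which encodes the related factor SREBP-2, averaged 10.00 ± 0.05 in PT2385 cells, against 9.95 ± 0.03 in vehicle cells (SD, 3 arrays each) and was named after its values were seen.

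Of 12 measured genes that supply acetyl-CoA, malonyl-CoA and NADPH, 0 passed the threshold (limma), with 3 at an unadjusted p under 0.05, against 14.5% of all clusters. A positive difference was found in 25% of them, against 53.5% of all clusters, and their median was -0.13. Me1, the malic enzyme gene that makes NADPH, had 10.88, 10.67 and 10.90 in the PT2385 arrays and 11.20, 11.24 and 11.47 in the vehicle arrays, a difference of -0.49 (SE 0.11, adjusted p = 0.119, limma). Pgd, the gene of the NADPH-making phosphogluconate dehydrogenase, had 8.83, 9.32 and 9.67 in the PT2385 arrays and 9.84, 10.07 and 9.95 in the vehicle arrays, a difference of -0.68 (SE 0.19, adjusted p = 0.184). Both genes were lower in every PT2385 array than in any vehicle array.

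Of the other elongases, desaturases and their electron carriers, 18 were measured. The threshold was passed by 1, as lower in the PT2385 group, against 0.495% of all clusters in that direction. Degs2, a desaturase and hydroxylase gene of sphingolipid synthesis, had 6.09, 6.25 and 6.24 in the PT2385 arrays and 7.09, 7.26 and 7.43 in the vehicle arrays. It fell by 1.07 (SE 0.11, adjusted p = 0.00572, limma), with both groups in the range of the background controls (2.41 to 7.47). The median of the list was -0.15, and 13 of the 18 had a negative difference. A positive one was found in 27.8% of them, against 53.5% of all clusters. At an unadjusted p under 0.05 (limma) there were 8, against 14.5% of all clusters. The groups did not overlap in 4 as higher and 6 as lower in the PT2385 arrays, against 11.6% and 9.13% of all clusters. Cyb5a, the cytochrome b5 gene, and Cyb5r3, its reductase gene, supply electrons to acyl-CoA desaturases and were singled out after their values were seen. Cyb5a averaged 11.16 ± 0.11 in PT2385 cells, against 11.63 ± 0.17 in vehicle cells, and Cyb5r3 averaged 11.44 ± 0.14 in PT2385 cells, against 11.87 ± 0.07 in vehicle cells (SD, 3 arrays each). Neither passed (adjusted p = 0.137 for Cyb5a and 0.130 for Cyb5r3, limma).

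**Figure D3:**
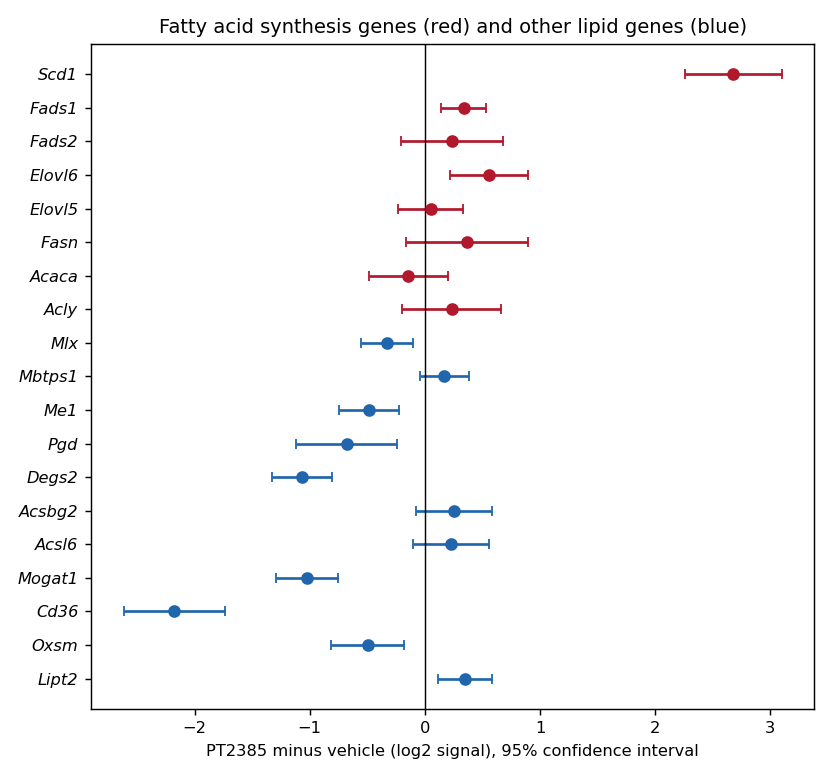
Difference PT2385 minus vehicle on the log2 scale (x axis) with its 95% confidence interval, for the 8 fatty acid synthesis genes and for the lipid genes named from each list. Scd1 stands at 2.68 and Cd36 at -2.18, with Degs2 and Mogat1 near -1.07 and -1.02. The difference of Scd1 was known when the genes were grouped, so its interval is a description and not a test.

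Among the lipid genes listed, the largest difference opposite to that of Scd1 was in an uptake gene. Cd36, which encodes a fatty acid transporter of the cell surface, had 9.22, 8.53 and 8.48 in the PT2385 arrays and 10.93, 10.78 and 11.06 in the vehicle arrays. It fell by 2.18 on the log2 scale (SE 0.19, adjusted p = 0.00186, limma), which is 4.52-fold lower, and was the 1 gene of 13 measured uptake and lipolysis genes to pass. Over all clusters 0.829% passed, 0.495% of them as lower in the PT2385 group. Mogat1, a monoacylglycerol acyltransferase gene, had 8.36, 8.54 and 8.64 in the PT2385 arrays and 9.46, 9.43 and 9.72 in the vehicle arrays, and fell by 1.02 (SE 0.12, adjusted p = 0.00919). It was the 1 of 26 glycerolipid and lipid droplet genes to pass, against the same 0.829% of all clusters. Its call was lost without PT2385 replicate 2 (adjusted p = 0.0660). Plin2, the lipid droplet coat gene, was named after its values were seen and had 9.14, 10.25 and 11.20 in the PT2385 arrays and 10.51, 11.69 and 11.06 in the vehicle arrays, so its groups overlapped.

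**Figure D4:**
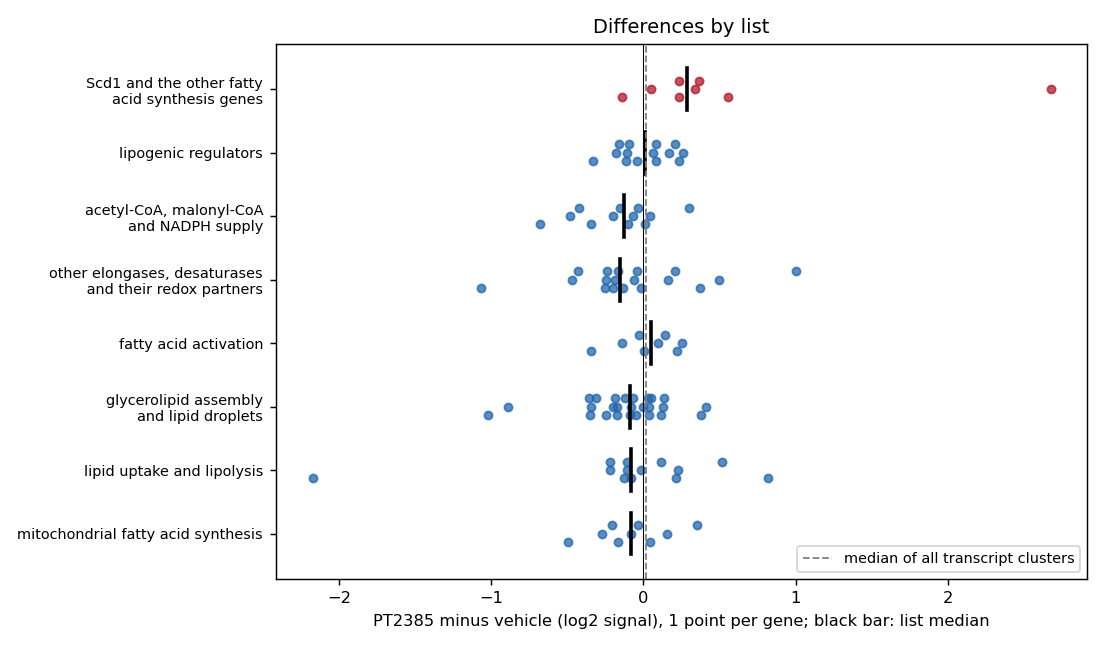
Difference PT2385 minus vehicle (x axis) of every measured gene of 8 lists, 1 point per gene, with a black bar at each list's median and a dashed line at the median of all clusters (0.02). The median of the top list is 0.28 with Scd1, whose difference was known when the list was made, and 0.23 without it, and the medians of the other lists lie between -0.15 and 0.05.

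The transcripts whose profile over the 6 arrays was most like that of Scd1 were sought among all named clusters, by the root mean square difference of log2 values centred on each gene's mean. The closest were Serpina1f (0.19), Ceacam2 (0.22), Chrdl1 (0.31), Abca13 (0.39) and Ccl28 (0.40). Serpina1f, a serpin family gene, had 10.66, 10.05 and 9.87 in the PT2385 arrays and 6.99, 7.43 and 7.79 in the vehicle arrays. Like Scd1, these 5 genes had their highest value in PT2385 replicate 1 and their lowest PT2385 value in replicate 3. They were picked for likeness to Scd1 over all 6 arrays, so this shared order follows in part from the choice. Likeness in 6 arrays of 2 groups rests mostly on the difference between the groups.

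**Figure D5:**
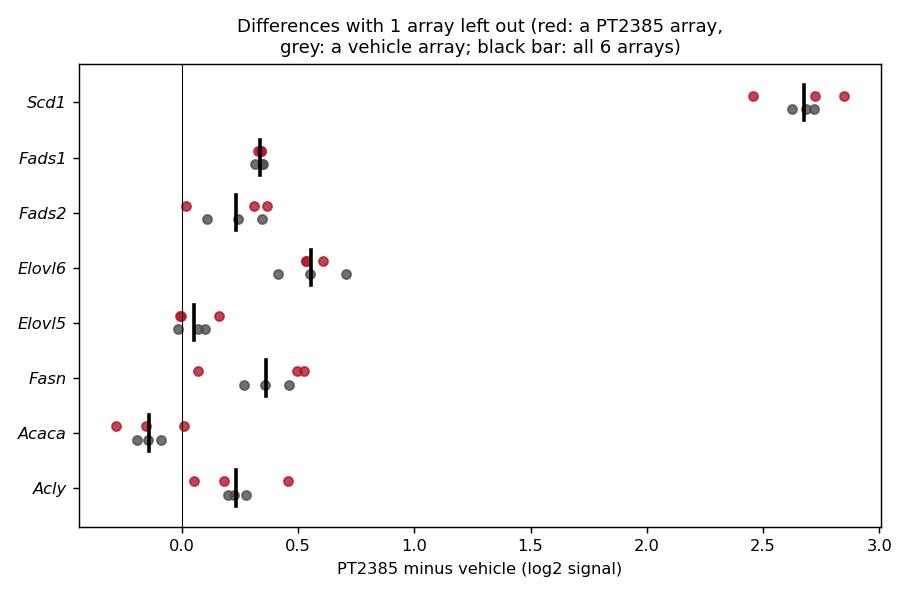
Difference PT2385 minus vehicle (x axis) of the 8 genes with all 6 arrays (black bar) and with 1 array left out in turn (points). Scd1 stays between 2.46 and 2.85 and Fads1 between 0.32 and 0.35, whereas Fasn runs from 0.07 to 0.52 and Acaca from -0.28 to 0.0078.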

How the data were processed

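Total RNA of isolated tubular cells was labelled with biotin and hybridised to whole-transcript arrays, 1 per sample, per the labels' protocols. The deposited values are log2 signals, 1 per transcript cluster and array. Transcriptome Analysis Console is named, with no version, per the submitters' processing notes. How probes were summarised, background-corrected and normalized is not stated by the sources used here, and no further normalization was applied. Samples titled IRPT were taken as PT2385 and those titled IR as vehicle.

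The table held 28846 rows. After 6640 control rows were left out, all 22206 clusters were tested, 19572 of them with 1 gene symbol in the platform annotation, 0 with several and 2634 with none. Array medians lay between 6.20 and 6.25. At most 0.234% of clusters were equal in any pair of arrays. limma 3.58.1 in R 4.3.3 (lmFit and eBayes, treatment as the only term, 2-sided) gave p-values adjusted by Benjamini-Hochberg over all clusters, with a threshold of 0.05. The fit was tested on simulated data. The number of arrays limits the precision.

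The genes, lists and tests were chosen with earlier results of these data known. Named were the fatty acid synthesis genes, up to 4 genes past the threshold per lipid list (or the 2 with the smallest p), the sex-linked genes and the 5 genes most like Scd1. Of the sex-linked list, Ddx3y and Xist were not analysed here. Cidec and Lipe stood both in a lipid list and among the fat cell markers. Alternatives were other normalizations, filters on dim clusters, 1 cluster or the mean of clusters per gene, another variance prior, array weights, a replicate block, omission of the X and Y chromosomes and of each array.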

Additional observations from a re-analysis of the deposited data

How the results depend on the processing

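Over 17 alternatives, the difference of Scd1 ran from 2.46 to 2.85, and 0 of the other 7 genes passed the threshold under any of them. The median difference of the 8 genes ran from 0.20 to 0.40 with 1 array left out. Elovl5 was -0.047 with array weights and -0.017 to 0.16 with 1 array left out, and Acaca was -0.28 to 0.0078 with 1 array left out, and the cause was not tested. Cd36 (adjusted p up to 0.0199) and Degs2 (adjusted p up to 0.0425) passed under every alternative run, and Mogat1 under 16 of 17. Me1 passed only with array weights (-0.54, adjusted p = 0.0447). The number of clusters past the threshold, 184, was 456 with array weights and 42 to 179 with 1 array left out. Leaving out PT2385 replicate 2 gave 42, and leaving out vehicle replicates 1, 2 and 3 gave 81, 65 and 72. With each array centred on its median there were 57 higher and 135 lower, against 74 and 110. Acsbg2 and Acsl6 fell below the filter at the median of all clusters, which left them 16 alternatives. With the replicate number as a replicate block 178 clusters passed, and no call among the fatty acid synthesis genes other than Scd1 and the lipid genes named by the rule changed. The deviations of same-numbered arrays had correlations of 0.14, 0.03 and -0.06 for replicates 1, 2 and 3. These values do not settle whether such arrays share more than a number. Where both groups lie in the range of the background controls (2.41 to 7.47), a difference may not be measurable. That was so for Acaca and for the called genes Degs2 and Csf3r. Fads6, Lipt2, Scd3, Scd4, the other neutrophil markers and the fat cell markers except Fabp4 were among the others.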

Other observations

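Fatty acid activation and the separate mitochondrial pathway of fatty acid synthesis held no transcript past the threshold. Of 8 measured acyl-CoA synthetase and fatty acid transport genes 0 had an unadjusted p under 0.05 (limma), against 14.5% of all clusters. The median difference of these 8 genes was 0.05, and the groups overlapped in all 8. Acsbg2 differed by 0.25 (SE 0.15) and Acsl6 by 0.22 (SE 0.14). Of 9 measured mitochondrial genes 3 had an unadjusted p under 0.05 (limma), against 14.5% of all clusters. Among these 9 genes 0 passed the adjusted threshold, and their median was -0.08. Oxsm, the mitochondrial ketoacyl synthase gene, had 8.08, 7.66 and 7.67 in the PT2385 arrays and 8.16, 8.29 and 8.44 in the vehicle arrays, a difference of -0.50 (SE 0.14, adjusted p = 0.179, limma). Lipt2, a lipoyl transferase gene, had 6.66, 6.86 and 6.74 in the PT2385 arrays and 6.46, 6.47 and 6.28 in the vehicle arrays, a difference of 0.35 (SE 0.10, adjusted p = 0.195, limma).

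Fads6, a little-studied member of the desaturase family picked out after its values were seen, had 6.87, 6.11 and 5.87 in the PT2385 arrays and 5.44, 5.28 and 5.13 in the vehicle arrays. The groups did not overlap, and the difference was 1.00 (SE 0.23, adjusted p = 0.113, limma), so it did not pass the threshold. Like Scd1, it was highest in PT2385 replicate 1 and lowest of the PT2385 arrays in replicate 3.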
